A study of Homo sapiens with 6 samples.

Results

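Hypoxia response genes that do not act in glycolysis were examined in xenograft tumours of MHCC97L, a human liver cancer cell line, with and without recombinant human lumican. The set held 34 named genes: the subunits of the hypoxia-inducible factors (HIF), the enzymes and the ligase component that control them, and targets with roles outside sugar breakdown. They were matched by gene symbol in all 6 expression tables, and all 34 were found among the 58515 symbols that stand on a row of their own, of 60725 rows in all. Lumican is a proteoglycan of the extracellular matrix. The 6 libraries came from MHCC97L xenografts, 3 labelled Ctrl (A, B and C, without recombinant lumican) and 3 labelled rhLUM (A, B and C, given the recombinant protein). The sources used here do not give the dose, the schedule, the host strain or whether each library is a separate tumour, so p-values measure the spread between these libraries, which may be technical. Both groups share the cell line and the xenograft setting, and the line stands for a single patient's tumour grown in a host.

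HIF is a pair of proteins, an oxygen-sensitive alpha subunit (HIF1A or EPAS1) and the stable partner ARNT. In oxygen the EGLN prolyl hydroxylases mark the alpha subunit, VHL recognises the mark and directs its destruction, and the asparaginyl hydroxylase HIF1AN blocks its contact with coactivators. When oxygen is short the alpha subunit escapes, binds short DNA motifs called hypoxia response elements, and switches on genes for vessel growth, acid balance, collagen processing and mitochondrial adjustment. Much of this control acts on protein, so the transcript of a HIF subunit is not a measure of HIF activity. Solid liver tumours are well known for hypoxic zones and for this gene programme.

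Values are TPM, transcript levels divided by transcript length and scaled to the same total in every library, so levels can be compared between genes. Fold changes are differences of log2(TPM + 1), rhLUM minus Ctrl, tested by limma, and a gene was called when its p, adjusted by Benjamini-Hochberg over 14781 tested genes, was under 0.05. All 34 members passed the filter of a mean of at least 1 TPM. Of them, 13 were called higher with rhLUM (38.2%), 16 lower (47.1%) and 5 were not called. Among all tested genes 44.5% were called higher and 22.3% lower. The median log2 fold change was 0.04 for the members and 0.16 for all tested genes. In 30 of the 34 (88.2%) the 3 rhLUM libraries lay wholly above or wholly below the 3 Ctrl libraries, against 71.4% of all tested genes. Many members were abundant, with Ctrl means above those of 97.2% (VEGFA) and 98.7% (NDRG1) of tested genes, while HIF1AN stood above 17.0%. The comparisons with all tested genes were not matched for level. In mean TPM as deposited 4 members at least doubled (AK4, HIF1AN, EGLN1 and STC2) and 5 at least halved (EGLN3, ANKRD37, LOX, ADM and PPFIA4). The size of their log2 fold changes exceeded that of 82.9% (STC2) to 99.0% (EGLN3) of tested genes. The share of all tested genes that doubled or halved was not counted.

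The split between higher and lower depends on the scaling. Median-of-ratios scaling, which sets the typical gene equal between libraries, moved the median of all genes by -0.20 on the log2 scale. After it 10 members were higher (29.4%) and 21 lower (61.8%), while 31.3% of all tested genes were higher and 33.9% lower. The counts of members that doubled or halved hold as deposited only and were not repeated after scaling. For STC2 the log2 fold change went from 0.86 to 0.67 with the scaling. Those of ANGPTL4, HILPDA and DDIT4 went from -0.85, -0.84 and -0.88 to -1.06, -1.06 and -1.10. The call or the direction of HIF1A, EPAS1, CA12, PLOD1, BNIP3, BNIP3L and WSB1 differed between the scalings, and both values are given for them. Mitochondrially encoded genes held 20.5 to 20.7% of TPM in the Ctrl libraries and 14.3 to 14.5% in the rhLUM libraries.

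The tissue label was checked with marker genes. The 6 liver epithelial markers summed to 2274 to 2300.1 TPM in Ctrl and 4468 to 4494 in rhLUM, a difference carried mostly by KRT8 (1060.0 and 2474 TPM) and ALB (289 and 825). AFP was not called (31.2 and 28.6 TPM), EPCAM was called lower (2.03 and 0.82), and GPC3, often high in liver cancer, was at 0.11 and 0.15 TPM. The summed endothelial markers ran from 21.6 to 23.0 TPM in Ctrl and from 26.9 to 31.8 in rhLUM. Most of that sum was PECAM1 (16.4 and 25.3 TPM), while CDH5 went the other way (3.10 and 0.45 TPM, called lower) and VWF, TEK and CLDN5 stayed at a group mean of 0.10 TPM or less. Of the 5 leukocyte markers, LYZ (180.2 and 240.7 TPM) and CD68 (33.6 and 58.1) made up nearly all of 213.0 to 215.0 TPM in Ctrl and 297.6 to 300.6 in rhLUM, and PTPRC, CD3E and CD14 did not exceed a group mean of 0.40. The 7 fibroblast markers summed to 37.1 to 41.3 TPM in Ctrl and 101.5 to 111.7 in rhLUM, mostly LUM itself (24.7 and 95.5), while DCN was called lower (7.96 and 1.26). Erythroid markers summed to at most 3.50 TPM. Only the human build GRCh38 is named, and the handling of host reads is not given. These rows therefore do not measure the vessels, fibroblasts or leukocytes of the host. No marker was listed at 0 in all 6 libraries, and the part of other cells in the results below was not tested.

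**Figure D1:**
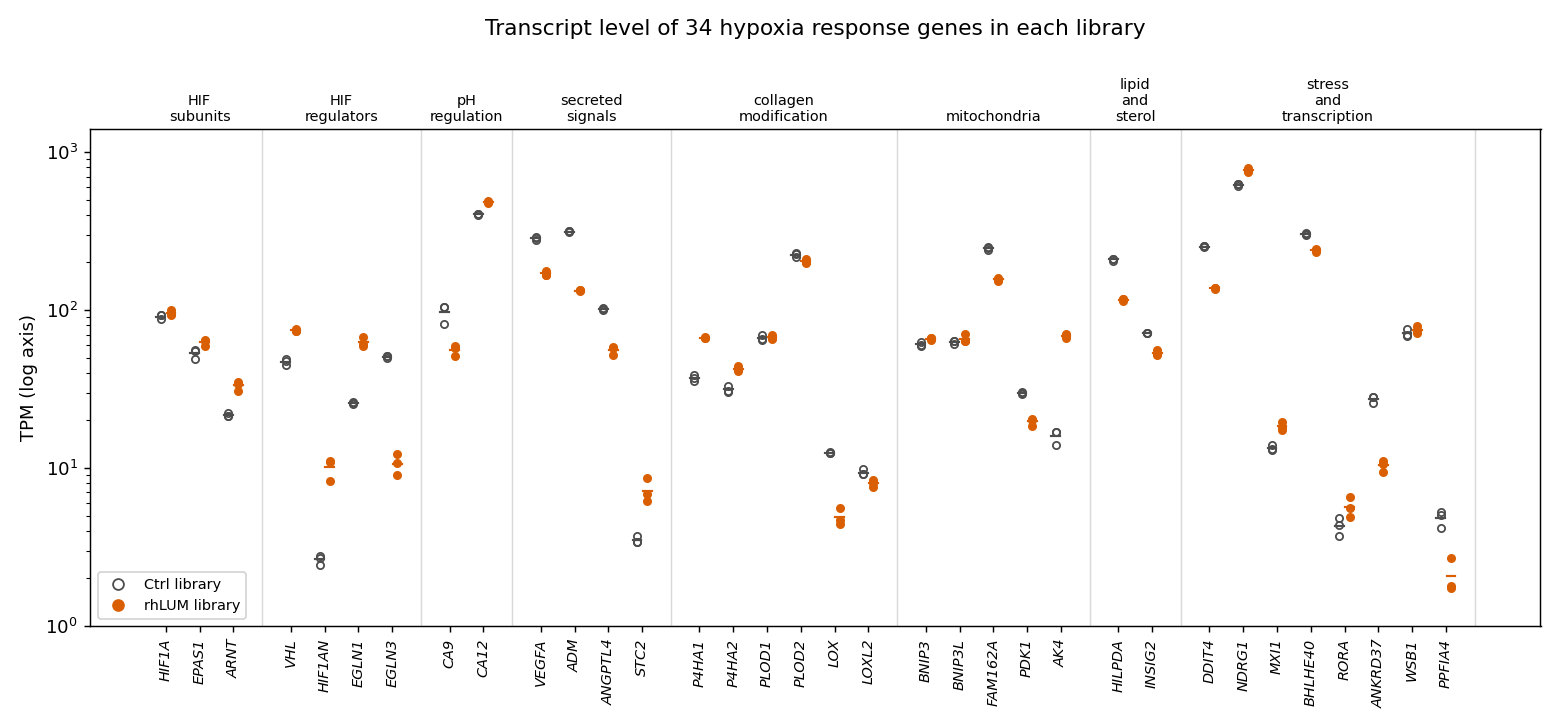
Transcript level (TPM, log axis) of the 34 members in each of the 3 Ctrl (open) and 3 rhLUM (filled) libraries, grouped by role, with short lines at the group means. NDRG1 was the most abundant in both groups (622 and 766.5 TPM), HIF1AN the least in Ctrl (2.65 TPM), and the groups overlapped for HIF1A, PLOD1, BNIP3L and WSB1.

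A core of the hypoxia response element, ACGTG or GCGTG read on either strand, was searched in the 250 bases before the RefSeq transcription start (build GRCh38.p14). A window was found for 28 of the 34 members, taking for each the start nearest the GENCODE gene start. There was none for VHL, VEGFA, LOXL2, BNIP3L, HILPDA and NDRG1. At least 1 core lay in 21 of the 28 windows (75%), against 54.7% of the 13984 windows of tested genes and 43.2% of all 35116 windows. The units differ, since members count 1 window per gene and the other shares count every window. The members were also listed in part as HIF targets, and the difference in shares was not tested. By direction, 7 of the 11 members called higher held a core, 11 of the 13 called lower, and 3 of the 4 not called. A match of these letters describes the sequence and does not show that HIF binds there. The 8 stretches below are those of the 4 largest rises and the 4 largest falls among members with a core, so that genes that moved in opposite directions can be compared. Each is read 5′ to 3′ on the gene's strand, from 20 bases before the first core (or the window's edge) to 20 after the last (or the start site), with every core in capitals. Where 6 capitals read CACGTG, the cores of both strands overlap.
AK4: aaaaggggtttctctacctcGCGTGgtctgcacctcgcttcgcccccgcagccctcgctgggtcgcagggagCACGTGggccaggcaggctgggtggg
EGLN1: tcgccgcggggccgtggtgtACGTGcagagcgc
STC2: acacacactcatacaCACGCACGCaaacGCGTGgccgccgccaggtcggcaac
P4HA1: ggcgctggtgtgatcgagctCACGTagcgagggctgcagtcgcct
ANKRD37: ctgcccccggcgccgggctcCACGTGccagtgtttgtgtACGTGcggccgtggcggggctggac
ADM: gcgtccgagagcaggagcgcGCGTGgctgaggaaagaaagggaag
LOX: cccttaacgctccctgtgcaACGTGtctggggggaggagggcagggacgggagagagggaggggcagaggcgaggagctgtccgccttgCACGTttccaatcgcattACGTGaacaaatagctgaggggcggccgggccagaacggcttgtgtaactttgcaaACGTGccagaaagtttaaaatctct
PPFIA4: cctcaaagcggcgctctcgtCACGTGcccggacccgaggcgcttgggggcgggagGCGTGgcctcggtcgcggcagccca

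The stretches of AK4 (chr1:65147387-65147484, plus strand), EGLN1 (chr1:231422288-231422320, minus), STC2 (chr5:173328612-173328664, minus) and P4HA1 (chr10:73096928-73096972, minus) belong to genes that rose. Those of ANKRD37 (chr4:185396659-185396722, plus), ADM (chr11:10304952-10304996, plus), LOX (chr5:122078277-122078464, minus) and PPFIA4 (chr1:203026352-203026431, plus) belong to genes that fell. The palindrome CACGTG was present in the stretch of AK4, which rose, and in those of ANKRD37 and PPFIA4, which fell. LOX had 4 cores, AK4, STC2, ANKRD37 and PPFIA4 had 3 each when overlapping ones are counted separately, and EGLN1, P4HA1 and ADM had 1. The RefSeq starts of EGLN1, STC2, ANKRD37 and ADM lay 2757, 1089, 820 and 393 bases from the GENCODE gene start, so other start sites of these genes were not searched. The number of cores did not sort these 8 genes by direction. Among the other windows, those of RORA, EGLN3, P4HA2 and HIF1AN held no core. Their RefSeq starts lay 601789, 511700, 68224 and 6871 bases from the GENCODE gene start, so their other starts were not searched either. For EPAS1, with 1 core, the distance was 3740 bases.

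**Figure D2:**
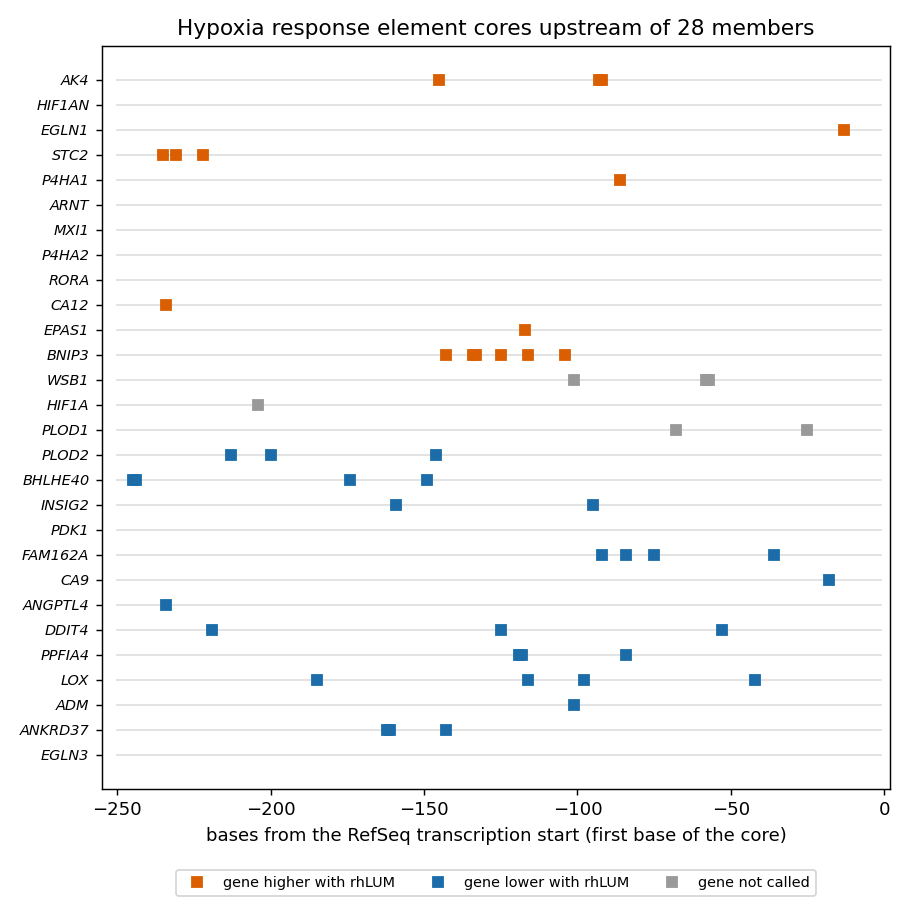
Position of each hypoxia response element core, in bases from the RefSeq start, in the 28 members with a window, ordered by log2 fold change from the highest (AK4, top) to the lowest (EGLN3, bottom). Squares are coloured by call, and cores appear at both ends of the order: 7 of 11 genes called higher and 11 of 13 called lower held at least 1.

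Among the HIF subunits, ARNT rose clearly and HIF1A was nearly level. HIF1A (chromosome 14, 61695513 to 61748259, GRCh38), the widely expressed alpha subunit, was at 92.7, 92.5 and 87.6 TPM in Ctrl A, B and C and at 92.5, 94.8 and 100.2 in rhLUM. The ranges overlapped, and its log2 fold change of 0.07 (95% interval -0.02 to 0.17) was not called. It was -0.145 after median-of-ratios scaling and then called lower (limma adjusted p = 0.0162), so its direction depends on the scaling. EPAS1 (chromosome 2, 46293667 to 46386703), the alpha subunit known as HIF-2 alpha, stood at 49.2, 55.0 and 55.7 TPM in Ctrl and at 59.0, 63.8 and 64.9 in rhLUM. The groups did not overlap and EPAS1 was called higher (0.23, SE 0.06, limma adjusted p = 0.0120), but it was 0.01 after median-of-ratios scaling and no longer called. ARNT (chromosome 1, 150809705 to 150876768), the partner of both, was at 21.4, 22.2 and 21.2 TPM in Ctrl and at 30.8, 35.1 and 34.3 in rhLUM, every rhLUM library above every Ctrl one. Its rise was 0.60 (SE 0.06, limma adjusted p = 7.43e-05), or 0.39 after scaling. The level of both alpha subunits together over that of ARNT went from 6.68 ± 0.066 in Ctrl to 4.755 ± 0.21 in rhLUM (SD, n = 3), a ratio given as a description.

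The transcripts of 3 negative regulators of HIF rose and that of 1 fell. HIF1AN (chromosome 10, 100529072 to 100559998), the asparaginyl hydroxylase, had 2.45, 2.78 and 2.71 TPM in the Ctrl libraries and 8.33, 11.1 and 10.9 in rhLUM, with a wide gap between the groups. That was 3.82 times the mean TPM and a log2 fold change of 1.60 (SE 0.12, limma adjusted p = 1.91e-05), larger in size than that of 97.2% of tested genes. HIF1AN was at 1.42 after median-of-ratios scaling and at 1.37 with a correction for length and GC content. In the annotation 325 of its exonic bases lie antisense to NDUFB8, a respiratory chain subunit at 120.5 TPM in Ctrl and 114.2 in rhLUM, and the use of strand in counting is not given, so reads of both genes could not be told apart there. VHL (chromosome 3, 10141008 to 10152220), the substrate receptor of the ligase that removes hydroxylated HIF, was at 45.0, 49.2 and 47.5 TPM in Ctrl and at 74.1, 73.3 and 75.4 in rhLUM. It rose by 0.64 (SE 0.04, limma adjusted p = 9.45e-06), or 0.43 after median-of-ratios scaling and 0.30 with a correction for length and GC content.

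The 2 prolyl hydroxylases among the members moved in opposite directions. EGLN1 (chromosome 1, 231363751 to 231425044), known as PHD2 and the main oxygen sensor of the family, was at 26.2, 25.9 and 25.6 TPM in Ctrl and at 59.5, 61.3 and 67.6 in rhLUM. It rose by 1.25 (SE 0.05, limma adjusted p = 1.55e-06), 2.43 times the Ctrl mean. The rise was 1.03 after median-of-ratios scaling and 0.88 with the length and GC correction. EGLN3 (chromosome 14, 33924231 to 34462774), known as PHD3 and itself a strongly hypoxia-induced HIF target, was at 51.3, 49.9 and 50.9 TPM in Ctrl and at 9.01, 12.2 and 10.7 in rhLUM. Its log2 fold change of -2.16 (SE 0.10, limma adjusted p = 1.92e-06) was the deepest fall of the 34 members and exceeded in size that of 99.0% of tested genes. EGLN1 was thus below EGLN3 in each Ctrl library, at 0.50 to 0.52 of its level, and above it in each rhLUM library, at 5.02 to 6.60 times. EGLN2, the remaining family member, was not among the 34 and was not called (35.4 ± 3.59 TPM in Ctrl, 37.9 ± 1.32 in rhLUM, SD, n = 3). The summed level of EGLN1, EGLN2 and EGLN3 was 111.9 ± 4.20 TPM (SD, n = 3) in the Ctrl libraries and 111.3 ± 3.62 in the rhLUM libraries. As deposited the sum differed by less than the spread between libraries, but after median-of-ratios scaling it was 120.8 ± 4.62 in Ctrl and 103.1 ± 3.34 in rhLUM, without overlap. Its makeup shifted from EGLN3 to EGLN1 under either scaling.

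**Figure D3:**
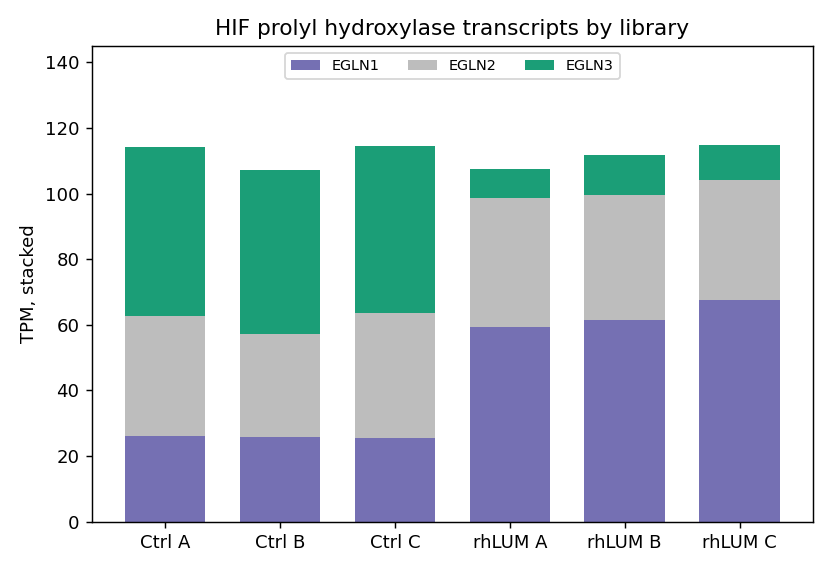
TPM of the HIF prolyl hydroxylases EGLN1, EGLN2 and EGLN3 stacked for each library. Total height, in TPM as deposited, ran from 107.1 to 114.6 TPM in Ctrl and from 107.5 to 114.8 in rhLUM, while EGLN3 made up 49.9 to 51.3 TPM in Ctrl and 9.01 to 12.2 in rhLUM.

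Of the carbonic anhydrases, membrane enzymes that buffer the acid of hypoxic tumours, CA9 fell. CA9 (chromosome 9, 35673856 to 35681159), a standard tissue marker of hypoxia, was at 105.1, 103.9 and 81.8 TPM in Ctrl and at 59.0, 51.3 and 57.3 in rhLUM. Ctrl C stood below the other Ctrl libraries but above all of rhLUM. CA9 changed by -0.78 (SE 0.10, limma adjusted p = 4.12e-04). Part of its exons, 643 bases, lies antisense to ARHGEF39, which was at 22.6 TPM in Ctrl and 17.5 in rhLUM. CA12, the related enzyme, was more abundant, with 400.2, 405.9 and 403.1 TPM in Ctrl and 481.7, 490.0 and 476.8 in rhLUM. Its call as higher (0.26, SE 0.02, limma adjusted p = 1.55e-05) was lost after median-of-ratios scaling, where it was 0.04 (limma adjusted p = 0.110). CA12 was 3.81 to 4.93 times CA9 in Ctrl and 8.16 to 9.56 times in rhLUM.

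Of the 4 secreted signals, VEGFA, ADM and ANGPTL4 fell and STC2 rose. VEGFA (chromosome 6, 43770184 to 43786487), the main growth factor for blood vessels, was at 277.2, 284.3 and 290.7 TPM in Ctrl and at 167.1, 176.7 and 167.8 in rhLUM, a change of -0.73 (SE 0.03, limma adjusted p = 1.54e-06). In these bulk libraries fewer cells of a type and less RNA per cell cannot be told apart. ADM (chromosome 11, 10304680 to 10307397), the vasodilator adrenomedullin, was at 315.3, 310.0 and 314.9 TPM in Ctrl and at 133.4, 133.1 and 132.0 in rhLUM. The SD was under 1% of the mean in each group, and ADM had the smallest p of all members. Its fold change was -1.23 (SE 0.02, limma adjusted p = 3.36e-08). ANGPTL4, an inhibitor of lipoprotein lipase, was at 101.8, 99.5 and 102.3 TPM in Ctrl and at 58.6, 51.8 and 57.5 in rhLUM, and fell by 0.85 on the log2 scale (limma adjusted p = 6.86e-06). STC2, the glycoprotein stanniocalcin-2, was low, at 3.71, 3.39 and 3.39 TPM in Ctrl and 6.19, 8.59 and 6.83 in rhLUM, and rose by 0.86 (SE 0.12, limma adjusted p = 5.08e-04). All rhLUM libraries of STC2 lay above all Ctrl ones, and STC2 is also a target of the stress factor ATF4.

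Among the 6 enzymes of collagen maturation 2 rose, 3 fell and 1 was not called. Prolyl 4-hydroxylases stabilise the collagen helix, and both catalytic subunits rose. P4HA1 was at 39.0, 35.6 and 36.9 TPM in Ctrl and at 68.0, 66.5 and 66.4 in rhLUM, a rise of 0.83 (SE 0.04, limma adjusted p = 3.25e-06), or 0.48 with a correction for gene length and GC content. P4HA2 was at 33.2, 30.9 and 30.4 TPM in Ctrl and at 44.1, 41.0 and 42.1 in rhLUM, a rise of 0.42 (limma adjusted p = 2.12e-04), or 0.20 after median-of-ratios scaling and still called. Of the lysyl hydroxylases, which prepare crosslinking sites, PLOD2 fell. PLOD1 was at 65.1, 64.7 and 69.1 TPM in Ctrl and at 69.5, 66.7 and 65.3 in rhLUM. These ranges overlapped and PLOD1 was not called (0.02, 95% interval -0.08 to 0.11), but it was -0.20 after median-of-ratios scaling and then called lower (limma adjusted p = 0.00373). PLOD2, the strongly hypoxia-induced member of the family, was at 231.1, 215.7 and 226.0 TPM in Ctrl and at 199.0, 209.5 and 201.8 in rhLUM, just without overlap. It fell by 0.14 (SE 0.03, limma adjusted p = 0.00812), and its value was -0.36 after median-of-ratios scaling and -0.43 with the length and GC correction.

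Lysyl oxidases crosslink collagen and elastin outside the cell, and LOX fell. LOX (chromosome 5, 122063195 to 122078360) was at 12.6, 12.5 and 12.4 TPM in Ctrl and at 4.44, 4.69 and 5.56 in rhLUM, a change of -1.20 (SE 0.08, limma adjusted p = 1.47e-05). It overlaps SRFBP1 antisense over 138 exonic bases, and SRFBP1 was at 7.53 TPM in Ctrl and 11.9 in rhLUM, the opposite order. LOXL2, a relative of LOX, was at 9.11, 9.82 and 9.13 TPM in Ctrl and at 8.01, 8.44 and 7.61 in rhLUM. Its small fall (-0.20, limma adjusted p = 0.0299) was no longer called without Ctrl A, Ctrl B, Ctrl C, rhLUM A or rhLUM C, with limma adjusted p from 0.0551 to 0.0984, and was called without rhLUM B (limma adjusted p = 0.0297). After median-of-ratios scaling LOXL2 was at -0.40 and called lower. On the same strand 120 exonic bases of LOXL2 overlap ENTPD4, which was at 25.0 TPM in Ctrl and 20.6 in rhLUM. Reads of LOXL2 and ENTPD4 could not be told apart there. The level of P4HA1 was 2.85 to 3.09 times that of LOX in Ctrl and 11.9 to 15.3 times in rhLUM. Collagen transcripts on the fibroblast list were low, COL1A1 at 3.30 TPM in Ctrl and 5.11 in rhLUM.

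Genes that act on mitochondria gave the largest rise of the set beside falls and near-level values. AK4 (chromosome 1, 65147549 to 65232145), an adenylate kinase of the mitochondrial matrix, was at 16.8, 14.1 and 17.0 TPM in Ctrl and at 70.3, 66.9 and 69.7 in rhLUM. That was 4.32 times the mean TPM, with a log2 fold change of 2.05 (SE 0.07, limma adjusted p = 7.69e-07), larger in size than that of 98.8% of tested genes. AK4 was at 1.84 after median-of-ratios scaling and at 1.81 with the length and GC correction. The pseudogene AK4P1, close enough in sequence that reads may be shared, went from 5.18 ± 0.93 TPM in the Ctrl libraries to 25.0 ± 1.90 in the rhLUM libraries (SD, n = 3). The sum of both was 21.1 ± 1.81 and 94.0 ± 1.45 TPM, so the summed rows were as far apart between the groups as AK4 alone.

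PDK1 (chromosome 2, 172555373 to 172608669), the kinase that keeps pyruvate out of the mitochondrial cycle, was at 29.8, 30.1 and 29.3 TPM in Ctrl and at 20.2, 18.4 and 20.5 in rhLUM. It fell by 0.57 (SE 0.05, limma adjusted p = 5.51e-05). FAM162A, a mitochondrial protein linked to hypoxic cell death, was at 239.7, 247.6 and 252.0 TPM in Ctrl and at 153.8, 155.0 and 160.3 in rhLUM, and fell by 0.65 (SE 0.03, limma adjusted p = 1.83e-06). The mitophagy receptors stayed close to their Ctrl levels. BNIP3 was at 59.3, 60.5 and 62.5 TPM in Ctrl and at 66.9, 66.7 and 64.5 in rhLUM, and BNIP3L at 61.3, 64.0 and 63.7 and at 70.5, 63.3 and 64.0. The call of BNIP3 as higher (0.12, limma adjusted p = 0.0182) was lost without Ctrl A, Ctrl B, rhLUM A or rhLUM B (limma adjusted p of up to 0.0614), and after median-of-ratios scaling it was called lower (-0.100, limma adjusted p = 0.0369). BNIP3L was not called (0.06, 95% interval -0.05 to 0.18), and was at -0.154 and called lower after that scaling (limma adjusted p = 0.0239). The pseudogene BNIP3P4 went from 24.5 ± 1.37 to 19.4 ± 2.62 TPM, and BNIP3 with BNIP3P4 summed to 85.3 ± 2.08 and 85.4 ± 2.55 (SD, n = 3). As deposited these sums differed by less than the spread between libraries, while after median-of-ratios scaling they were 92.1 ± 2.11 and 79.1 ± 2.24, and the split of reads between these rows was not tested.

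Both genes of lipid handling fell. HILPDA (chromosome 7, 128455849 to 128458418), a lipid droplet protein that inhibits fat breakdown, was at 211.6, 205.7 and 210.9 TPM in Ctrl and at 116.8, 114.6 and 117.2 in rhLUM. Its change was -0.84 (SE 0.02, limma adjusted p = 3.08e-07). INSIG2, which holds back the activation of sterol synthesis in the endoplasmic reticulum, was at 71.9, 71.9 and 71.3 TPM in Ctrl and at 52.1, 55.7 and 52.5 in rhLUM, a change of -0.42 (SE 0.04, limma adjusted p = 4.40e-05), or -0.64 after median-of-ratios scaling. In neither did the groups overlap.

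Of the 8 members in stress signalling, transcription and related roles, 4 fell, 2 rose and 2 were not called. DDIT4 (chromosome 10, 72273920 to 72276036), known as REDD1, an inhibitor of the growth kinase mTORC1, was at 252.7, 251.1 and 252.8 TPM in Ctrl and at 137.6, 136.1 and 137.6 in rhLUM. Its change was -0.88 (SE 0.02, limma adjusted p = 1.36e-07). ANKRD37 (chromosome 4, 185396021 to 185400628), a small ankyrin repeat protein and a direct HIF target, was at 26.0, 28.1 and 28.4 TPM in Ctrl and at 11.2, 9.44 and 10.5 in rhLUM. It changed by -1.32 (SE 0.07, limma adjusted p = 4.29e-06), and 909 of its exonic bases lie antisense to UFSP2, which was at 12.6 TPM in Ctrl and 14.4 in rhLUM. PPFIA4, a liprin scaffold protein, was low at 5.02, 5.30 and 4.20 TPM in Ctrl and 2.71, 1.79 and 1.74 in rhLUM, and fell by 0.93 (SE 0.15, limma adjusted p = 0.00116). The repressor BHLHE40, also part of the circadian clock, was at 303.8, 306.8 and 299.6 TPM in Ctrl and at 242.7, 240.9 and 234.1 in rhLUM, a change of -0.34 (limma adjusted p = 1.22e-05), or -0.56 after median-of-ratios scaling.

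NDRG1, a stress-induced gene widely used as a hypoxia marker, moved the other way from CA9. It was at 608.7, 630.4 and 626.9 TPM in Ctrl and at 797.0, 756.3 and 746.2 in rhLUM, and rose by 0.30 (SE 0.03, limma adjusted p = 7.04e-05). After median-of-ratios scaling the rise was 0.08 and still called (limma adjusted p = 0.0397). MXI1, an antagonist of MYC, was at 13.3, 13.1 and 13.9 TPM in Ctrl and at 18.1, 17.5 and 19.7 in rhLUM, a rise of 0.43 (limma adjusted p = 4.90e-04), or 0.22 after median-of-ratios scaling and still called. The nuclear receptor RORA was at 3.70, 4.86 and 4.35 TPM in Ctrl and at 4.90, 5.55 and 6.52 in rhLUM. Its groups were just apart, and the difference of 0.33 (95% interval 0.03 to 0.62) was not called at a limma adjusted p of 0.0513. Without Ctrl B or rhLUM A it was called higher (limma adjusted p = 0.0406 and 0.0318), while without Ctrl A it was 0.24 (limma adjusted p = 0.151). After median-of-ratios scaling RORA was at 0.14 (limma adjusted p = 0.338) and with the length and GC correction at 0.12 (limma adjusted p = 0.409). WSB1, part of a ubiquitin ligase, was at 75.8, 69.6 and 68.4 TPM in Ctrl and at 71.3, 75.3 and 78.8 in rhLUM, overlapping and not called (0.08, 95% interval -0.05 to 0.20). After median-of-ratios scaling WSB1 was at -0.142 and called lower, at the edge of the threshold (limma adjusted p = 0.0498).

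**Figure D4:**
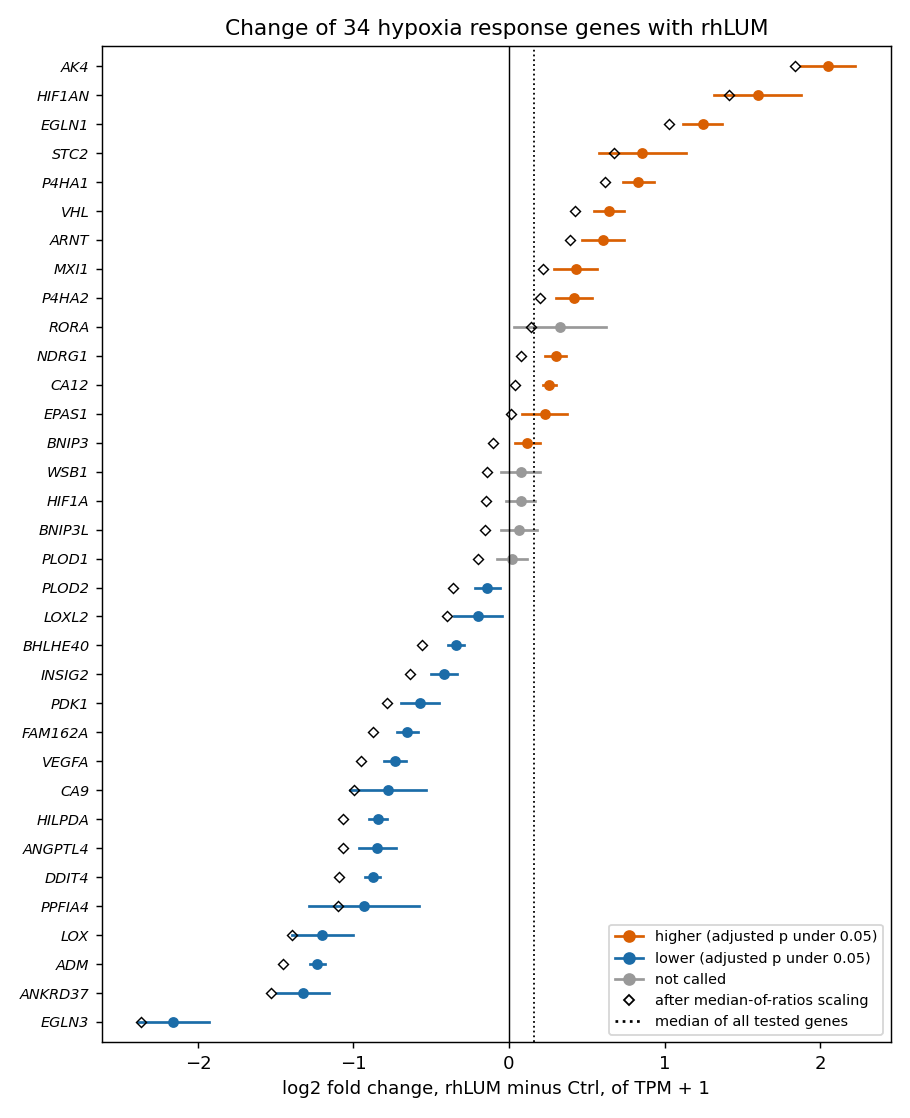
Log2 fold change (rhLUM minus Ctrl, of TPM + 1) of the 34 members with its 95% interval, ordered and coloured by call, with diamonds for the value after median-of-ratios scaling and a dotted line at the median of all tested genes (0.16). Values ran from -2.16 for EGLN3 to 2.05 for AK4, and the scaling moved HIF1A, PLOD1, BNIP3, BNIP3L and WSB1 from above to below 0.

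Other genes of the pathway were followed in 3 further lists, with values of single genes given only as deposited. Of 16 tested genes that build or control the HIF machinery, 7 rose, 3 fell and 6 were not called, with a median of 0.10 (5 higher and 6 lower after median-of-ratios scaling). That was 43.8% higher and 18.8% lower, near the 44.5% and 22.3% of all tested genes. The coactivator CREBBP rose from 13.6 ± 0.93 to 31.1 ± 1.15 TPM and CUL2, the scaffold of the VHL ligase, from 10.7 ± 0.94 to 23.2 ± 1.28 (SD, n = 3; limma adjusted p = 4.33e-06 and 1.66e-05). CITED2, which competes with HIF for its coactivators, rose by 0.49 (limma adjusted p = 1.19e-05). RBX1 and elongin B (listed as TCEB2), small subunits of the VHL ligase, changed by -0.40 and -0.15, and SIAH1, a ligase that removes prolyl hydroxylases, by -0.42 (limma adjusted p = 8.98e-05, 0.00636 and 1.01e-04). The scaffold and substrate receptor of the VHL ligase were therefore higher and 2 of its small subunits lower. Elongin C (listed as TCEB1), a further subunit, was not called (-0.06, limma adjusted p = 0.202). SIAH2, a relative of SIAH1, was called higher (0.32, limma adjusted p = 0.0072).

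Of 30 tested HIF targets outside glycolysis that are not among the 34, 10 rose, 14 fell and 6 were not called, with a median of -0.05 (5 higher and 18 lower after median-of-ratios scaling). The shares were 33.3% higher and 46.7% lower, against 44.5% and 22.3% of all tested genes, and after scaling 16.7% and 60.0%, against 31.3% and 33.9%. The ephrin EFNA1 fell from 520.2 ± 9.01 to 200.7 ± 5.99 TPM, and the growth factor binding proteins IGFBP3 and IGFBP1 from 1204 ± 8.77 to 522 ± 10.5 and from 206.2 ± 4.05 to 84.7 ± 1.76 (SD, n = 3; limma adjusted p = 7.37e-08, 2.74e-08 and 1.17e-07). Those with the smallest p among the rises were the receptor tyrosine kinase MET (0.85), the transferrin receptor TFRC (1.05) and haem oxygenase HMOX1 (0.31), with limma adjusted p = 1.98e-08, 8.89e-08 and 3.21e-05.

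Of 19 tested glycolytic HIF targets, 11 rose, 5 fell and 3 were not called, with a median of 0.38 (10 higher and 8 lower after that scaling, with a median of 0.16). The shares were 57.9% higher and 26.3% lower, against 44.5% and 22.3% of all tested genes, and after scaling 52.6% and 42.1%, against 31.3% and 33.9%. PGK1, LDHA and hexokinase HK1 rose by 0.58, 0.39 and 1.15, while the enolase ENO2, the glucose transporter SLC2A3 and the lactate exporter SLC16A3 changed by -1.01, -0.97 and -0.36. Their limma adjusted p ran from 2.46e-07 to 3.18e-04. The glycolytic list thus had a median above that of all tested genes, and the 34 members and the other targets outside glycolysis had medians below it, both as deposited and after median-of-ratios scaling for each list. That difference between lists was not tested.

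**Figure D5:**
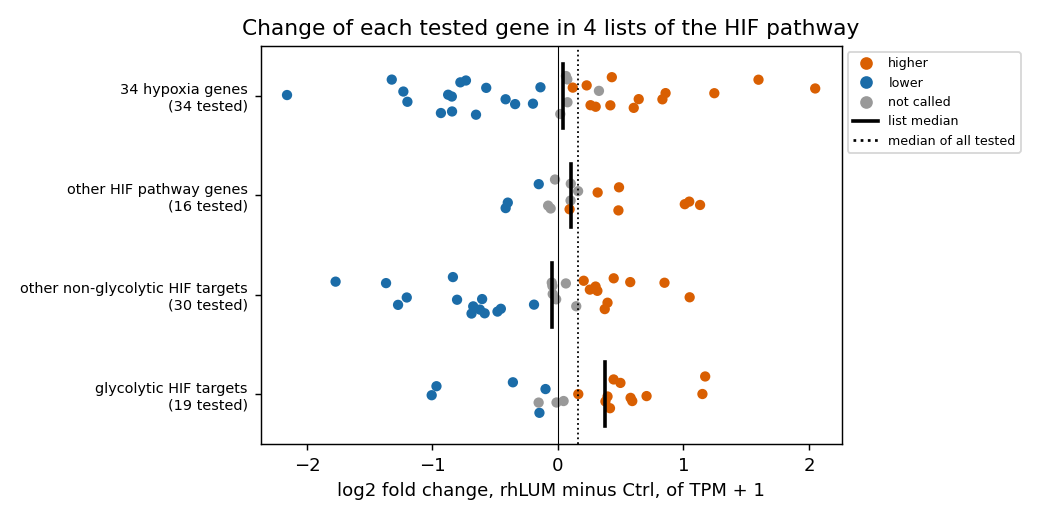
Log2 fold change of each tested gene in the 34 members (34 tested), other HIF pathway genes (16), other targets outside glycolysis (30) and glycolytic targets (19), coloured by call, with a bar at each list's median and a dotted line at the median of all tested genes. Medians were 0.04, 0.10, -0.05 and 0.38 against 0.16 for all tested genes, and every list held genes in both directions.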

How the data were processed

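RNA of 6 xenograft libraries was sequenced after poly-A selection, per the labels' protocols. RSEM 1.2.31 and STAR 2.7.8 were named, with the build GRCh38, per the submitters' processing notes. The authors deposited TPM, 1 table per library, per the file headers, each summing to about 1000000. The sources used here do not give the annotation, the use of strand or the handling of host reads. TPM keeps no depth, so depth is unknown and no counting interval is given.

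Rows with a shared symbol (2210 of 60725) were left out. Genes averaging 1 TPM or more entered a limma 3.58.1 fit (R 4.3.3) on log2(TPM + 1) with group as its term. It used a mean-variance trend and was tested on both sides. To the 4 residual degrees of freedom limma added prior ones estimated over all tested genes. The fit was tried on simulated data with far fewer changed genes, as many raised as lowered. That trial cannot check the scaling on which some calls depend. An exact permutation test of 3 against 3 cannot go below p = 0.1 and was not used. Intervals are 95%. Coordinates and overlaps came from GENCODE 29, promoters from RefSeq GRCh38.p14, and 3 listed genes were found under older symbols through RefSeq synonyms. The members, roles and lists were chosen with earlier results of these data known. All 34 members are named, and of each other list the 3 called genes per direction with the smallest p. EGLN2, SIAH2, elongin C, pseudogenes and overlapping genes were added after their values were seen. Alternatives were other scalings, pseudocount 0.1, other filters, no trend, a replicate block, a loess correction for length and GC content, and leaving out each library.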

Additional observations from a re-analysis of the deposited data

How the results depend on the processing

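Of the 34 members, 25 kept their direction and call in all of the 14 alternatives in which they were tested. A filter of 5 TPM left RORA and PPFIA4 untested. The count of members called higher ran from 10 to 14 and that called lower from 15 to 21. Under median-of-ratios scaling, rescaling without mitochondrial genes and the length and GC correction, the direction turned for HIF1A (-0.145, -0.038 and -0.177), PLOD1 (-0.200, -0.094 and -0.080), BNIP3L (-0.154, -0.048 and -0.172) and WSB1 (-0.142, -0.036 and -0.134). BNIP3 turned under the first and the last (-0.100 and -0.107) and was 0.006 under the second. EPAS1 lost its call under all 3, and CA12 under the first and the last. Without each library in turn PLOD1 ran from -0.006 to 0.048. LOXL2 also lost its call with no filter (adjusted p = 0.0605), and RORA gained one with pseudocount 0.1 (adjusted p = 0.0480). Median-of-ratios scaling, rescaling without mitochondrial genes and the length and GC correction shift the median of all genes by -0.20, -0.11 and -0.16. Same-lettered libraries of the groups did not deviate together (correlations 0.029, -0.023 and 0.084). With the letters as a replicate block 13 members were higher and 16 lower, the call of BNIP3 was lost (0.118, adjusted p = 0.0521) and that of RORA gained (0.327, adjusted p = 0.0365). Adjusted p-values are from limma. Unknown depth limits the low members HIF1AN, STC2, RORA and PPFIA4 most.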

Other observations

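Some close relatives within the hypoxia programme went in opposite directions. The stanniocalcin STC1 was at 3.99, 3.92 and 3.87 TPM in the Ctrl libraries and at 0.40, 0.51 and 0.42 in the rhLUM libraries (log2 fold change -1.77, limma adjusted p = 1.24e-05), while STC2 rose by 0.86. Among glucose transporters SLC2A1 rose from 116.5 to 158.8 TPM (0.44, limma adjusted p = 1.19e-05) and SLC2A3 fell by 0.97. The oxidoreductase ERO1A, which supports disulphide formation in secreted proteins, fell from 184.6 ± 5.01 to 119.6 ± 2.45 TPM (SD, n = 3; limma adjusted p = 2.68e-06). The coactivator EP300 was at 10.8 TPM in Ctrl and 22.7 in rhLUM (limma adjusted p = 3.36e-05), a rise of 1.01 beside the 1.13 of its relative CREBBP. These genes were chosen after their values were seen, and the difference between relatives was not tested.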
